A study of Mus musculus with 6 samples.

Results

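The collagen chain genes of the mouse were followed in coronary endothelial cells (ECs) with and without Wt1. They were taken as every protein-coding gene in the count table whose symbol has the form Col, a type number, the letter a and a chain number, whatever its count. The rule found 44 genes among the 55416 in the table, 21885 of which are protein-coding. By textbook class, 11 of the 44 encode chains of fibrillar collagens, 8 encode chains of basement membrane collagens and 25 encode chains of other collagens.

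Collagens are the main structural proteins of the extracellular matrix, and each molecule is built of chains wound around one another. Fibrillar collagens, such as types I, III and V, assemble into the fibrils that give connective tissue and the vessel wall their tensile strength, and are known above all as products of fibroblasts and other mesenchymal cells. Type IV collagen forms the network of the basement membrane on which ECs sit, and types XV and XVIII are proteoglycan-like collagens of basement membranes. The chains are hydroxylated and folded in the endoplasmic reticulum before they are secreted. Fibrillar chains are also trimmed by proteases, and lysyl oxidases crosslink collagen outside the cell.

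RNA-Seq was done on mGFP+ cells sorted by FACS from dissociated ventricles of E15.5 hearts, with 3 libraries from ControlΔEC and 3 from Wt1KOΔEC embryos, labelled as biological replicates. ControlΔEC embryos were Pdgfb(CreERT2/+); Wt1(+/+); R26(mTmG/+) and Wt1KOΔEC embryos were Pdgfb(CreERT2/+); Wt1(loxP/loxP); R26(mTmG/+). Both genotypes therefore carried the tamoxifen-inducible Cre under the control of Pdgfb and the membrane reporter, and dams of both received tamoxifen at 75 mg/kg by oral gavage from E11.5 to E13.5. The reporter marks cells in which Cre recombined. By staining, the study located these in vessels of the compact myocardium and not in the ventricular endocardium or epicardium. Endothelium outside the reach of this driver was thus not meant to be sampled, but transcripts of other cell types were present, as given below. The labels do not say how many embryos went into a library, and p-values measure the spread between these libraries.

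The libraries held between 26037324 and 44779020 counts, and levels are given as CPM after TMM normalization. Below 3 counts, or 0.0608 to 0.119 CPM depending on the library, a gene was treated as undetected, a limit that reflects counting error alone. The targeted gene, Wt1, was at 145, 109.6 and 149 CPM in the ControlΔEC libraries and at 14.0, 18.4 and 21.3 CPM in the Wt1KOΔEC libraries (adjusted p = 0.00319 in edgeR's quasi-likelihood test, log2 fold change -2.91). The 10 endothelial markers examined, which include Pecam1, Cdh5 and Kdr, summed to between 5977 and 7455 CPM in ControlΔEC and to between 6092 and 6983 CPM in Wt1KOΔEC, and none was at 0 in a whole genotype. The 18S ribosomal RNA gene Rn18s took 13.2% to 15.3% of the counts in ControlΔEC and 21.1% to 26.5% in Wt1KOΔEC. Fold changes are Wt1KOΔEC over ControlΔEC, and DEG stands for a differentially expressed gene, with a log2 fold change beyond 0.58 in either direction and an adjusted p-value under 0.05 over all genes tested.

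Among the fibrillar collagens, Col1a1 rose in Wt1KOΔEC and Col1a2, Col3a1 and Col5a2 lay above ControlΔEC in every Wt1KOΔEC library, while the far more abundant basement membrane chains Col4a1, Col4a2 and Col18a1 were at overlapping levels in both genotypes. Of the 44 chains, 38 had the 10 counts in at least 2 libraries needed for the test, among 16296 genes tested in all. Col1a1, a chain of type I collagen, was the 1 collagen DEG, and it rose by 1.34 on the log2 scale; 0.0736% of all genes tested were DEGs and 0.0491% were DEGs that rose. At an unadjusted p under 0.05 with the same fold change limit, 7 chains were higher and 0 were lower in Wt1KOΔEC, whereas 4.17% of all genes tested were higher and 5.96% lower. With DESeq2, the tool named in the study's methods, 6 chains were DEGs that were higher and 0 were lower, against 1.66% and 2.02% of all genes tested. In 9 chains every Wt1KOΔEC library lay above every ControlΔEC library, where 10.3% of all genes tested did, and in 2 chains every one lay below, where 8.97% did. The median log2 fold change was 0.22 over the 38 chains tested and -0.03 over all genes tested.

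**Figure D1:**
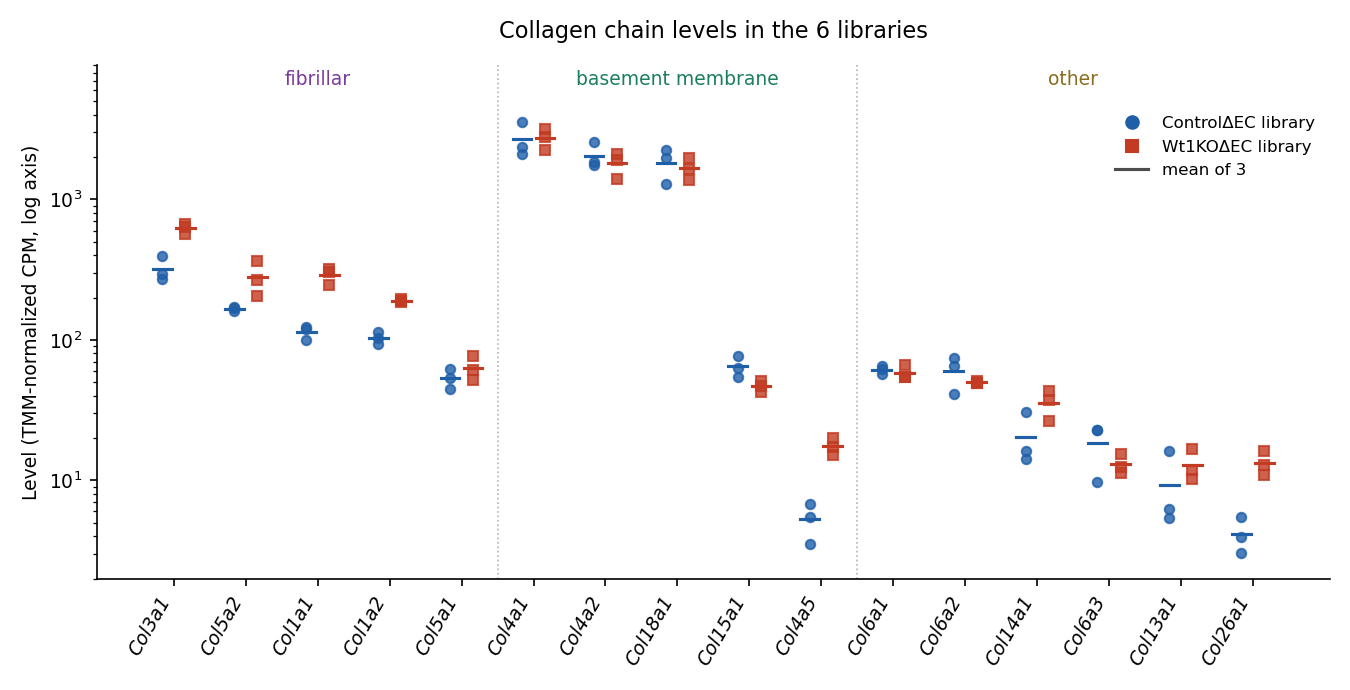
Level of the 16 collagen chains with a mean of at least 10 CPM or a DEG call, in TMM-normalized CPM on a log axis, by class. Circles are ControlΔEC libraries, squares are Wt1KOΔEC libraries and lines are means of 3; the squares lie above the circles for Col3a1, Col5a2, Col1a1, Col1a2, Col4a5 and Col26a1, while Col4a1, Col4a2 and Col18a1 are the highest and overlap.

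Type I collagen, the main collagen of tendon, skin and scar, is made of the chains encoded by Col1a1 and Col1a2. Col1a1 (ENSMUSG00000001506.11; chromosome 11, 94827050 to 94843868) was at 124, 119 and 100.04 CPM in ControlΔEC replicates 1, 2 and 3 and at 322, 245 and 303 CPM in Wt1KOΔEC replicates 1, 2 and 3. Every Wt1KOΔEC library was thus above every ControlΔEC library, with means of 114 ± 12.5 and 289.97 ± 40.0 CPM (SD, n = 3). This is a fold change of 2.54 (log2 fold change 1.34, standard error 0.17; adjusted p = 0.0441 in edgeR). Its size changed little when single libraries were left out, between 1.26 and 1.45 on the log2 scale, but the call at an adjusted p under 0.05 was kept only without ControlΔEC replicate 2 (0.0467). Adjusted p-values were 0.114 without ControlΔEC replicate 1, 0.0506 without ControlΔEC replicate 3, and 0.271, 0.117 and 0.242 without Wt1KOΔEC replicates 1, 2 and 3.

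Col1a2 (chromosome 6, 4504814 to 4541555) was at 114, 93.9 and 103 CPM in ControlΔEC and at 185, 190.2 and 195 CPM in Wt1KOΔEC. The 3 libraries of Wt1KOΔEC were close together and all above ControlΔEC. Its log2 fold change was 0.87 (standard error 0.15), with an adjusted p of 0.108 in edgeR and 2.4e-06 in DESeq2, so it was a DEG only by the second tool. Counts of Col1a1 per kb of exonic length were 2.09, 2.44 and 1.86 times those of Col1a2 in ControlΔEC and 3.34, 2.49 and 2.99 times in Wt1KOΔEC. The ratio was higher in each Wt1KOΔEC library than in any ControlΔEC library, by as little as 2.44 against 2.49 at the closest.

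Type III collagen is a product of Col3a1 alone and is abundant in elastic tissues such as vessel walls. Col3a1 (chromosome 1, 45350698 to 45395840) was the most abundant fibrillar chain, at 393, 271 and 293 CPM in ControlΔEC and 673, 632 and 568 CPM in Wt1KOΔEC. The lowest Wt1KOΔEC library was above the highest ControlΔEC library, with a log2 fold change of 0.97 (standard error 0.18; adjusted p = 0.110 in edgeR and 9.7e-06 in DESeq2).

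Type V collagen is incorporated into type I fibrils and limits their diameter. Its chain gene Col5a2 (chromosome 1, 45412554 to 45542442) was at 160, 171 and 167 CPM in ControlΔEC and at 205, 363 and 266 CPM in Wt1KOΔEC, so that the levels of ControlΔEC were tight and those of Wt1KOΔEC spread widely above them. Its fitted log2 fold change of 0.74 (standard error 0.21; adjusted p = 0.220 in edgeR and 0.0177 in DESeq2) became 0.50 without Wt1KOΔEC replicate 2. The partner chain Col5a1 (chromosome 2) did not separate the genotypes, at 44.7, 53.7 and 61.6 CPM in ControlΔEC and 76.8, 51.4 and 60.7 CPM in Wt1KOΔEC (log2 fold change 0.24, standard error 0.21, adjusted p = 0.714 in edgeR). Counts of Col5a2 per kb were 2.80, 2.49 and 2.12 times those of Col5a1 in ControlΔEC and 2.08, 5.51 and 3.42 times in Wt1KOΔEC, which overlapped.

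The other 6 fibrillar chains had means under 10 CPM. Col5a3, a further type V chain, was at 0, 0.162 and 0.555 CPM in ControlΔEC and 3.38, 1.26 and 1.03 CPM in Wt1KOΔEC. It did not overlap between genotypes but had an adjusted p of 0.469 in edgeR. The cartilage chains Col2a1, Col11a1 and Col11a2, and Col24a1 and Col27a1, overlapped between genotypes, with levels between 0 and 11.0 CPM and log2 fold changes between -0.45 and 1.44. All 11 fibrillar chains were tested, 9 had a log2 fold change above 0 and 2 below, and their median was 0.74.

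Of the genes whose upstream sequence was in the RefSeq promoter table, the fibrillar and type IV chains that were DEGs by DESeq2 and could be matched are shown, because they lay higher in every Wt1KOΔEC library. RefSeq promoter windows matched 35 of the 44 chains, in 38 windows; Col1a1, Col5a2 and Col26a1 were not among them. Each stretch is the longest part of the 250 bases before the RefSeq start that lies in no GENCODE exon, matched letter for letter to GRCm39, plus strand, 5′ to 3′, with capitals for TATAAA in Col3a1, GGGCGG in Col1a2 and CCAAT in Col4a5. They run over chr1:45350448-45350697 (Col3a1), chr6:4505370-4505492 (Col1a2) and chrX:140258165-140258353 (Col4a5). The RefSeq start of Col1a2 lies downstream of the start of the GENCODE gene span given above, so its stretch is inside that span.
Col3a1: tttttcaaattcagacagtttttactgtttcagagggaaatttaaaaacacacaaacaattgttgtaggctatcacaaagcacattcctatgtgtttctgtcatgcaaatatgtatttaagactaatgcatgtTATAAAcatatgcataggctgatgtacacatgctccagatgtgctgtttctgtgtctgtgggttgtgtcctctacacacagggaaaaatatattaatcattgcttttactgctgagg
Col1a2: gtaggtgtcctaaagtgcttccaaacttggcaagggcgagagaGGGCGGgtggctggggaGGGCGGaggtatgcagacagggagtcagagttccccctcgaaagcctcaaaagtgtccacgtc
Col4a5: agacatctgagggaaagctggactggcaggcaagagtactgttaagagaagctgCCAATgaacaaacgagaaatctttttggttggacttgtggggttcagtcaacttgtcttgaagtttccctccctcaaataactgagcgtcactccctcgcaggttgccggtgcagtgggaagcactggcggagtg
In the full windows of 250 bases, which include bases not shown, Col1a2 and Col4a5 both held CCAAT, 109 and 196 bases before the RefSeq start, and GGGCGG. The TATAAA match of Col3a1 lies 117 bases before the start and its window held none of the other motifs. The GGGCGG matches of Col1a2 lie 205 and 188 bases before the start and that of Col4a5 lies 30 bases before it. All are letter matches at any position, and their function was not tested. Over 32851 promoters of the same length, searched on both strands, TATAAA was in 12.4%, CCAAT in 33.8%, GGGCGG in 32.7% and GCGTGGGNG, a sequence bound by the zinc fingers of WT1, in 1.65%. Of the 38 collagen windows, 5, 13, 22 and 0 held these motifs in the same order. The motifs CCAAT and GGGCGG can occur in the same window and were counted separately.

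The basement membrane chains were by far the most abundant collagens in these cells. In ControlΔEC, Col4a1 was at 359 CPM per kb of exonic length, Col4a2 at 286 CPM per kb and Col18a1 at 258 CPM per kb, which placed them at ranks 48, 70 and 81 of 54749 genes with a length. The most abundant fibrillar chain per length, Col3a1, was at 31.1 CPM per kb and rank 848. Col1a1 followed at 17.4 CPM per kb and rank 1605.

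Col4a1 and Col4a2 encode the ubiquitous chains of type IV collagen and lie head to head on chromosome 8, with Col4a1 at 11248423 to 11362826 on the minus strand and Col4a2 at 11362471 to 11499287 on the plus strand. Col4a1 was at 3558, 2111 and 2373 CPM in ControlΔEC and 2802, 3154 and 2263 CPM in Wt1KOΔEC. Col4a2 was at 2557, 1743 and 1848 CPM in ControlΔEC and 1909, 2103 and 1397 CPM in Wt1KOΔEC. The genotypes overlapped for both chains, whose highest library was in each case ControlΔEC replicate 1. In edgeR, the log2 fold change of Col4a1 stood at 0.03 (standard error 0.21; adjusted p = 0.978) and that of Col4a2 at -0.19 (standard error 0.20; adjusted p = 0.791). The direction for Col4a1 was not determined, since leaving out single libraries gave log2 fold changes from -0.11 to 0.29 and scaling by library size only gave -0.11. Relative to Col4a2, counts of Col4a1 per kb were 1.34, 1.16 and 1.23 in ControlΔEC and 1.41, 1.44 and 1.56 in Wt1KOΔEC, without overlap. The annotated exons of the pair share 311 bases, and the libraries carry no strand, so reads from that stretch cannot be told apart.

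Col18a1 (chromosome 10), whose product releases the fragment endostatin, was at 1958, 2238 and 1281 CPM in ControlΔEC and 1636, 1973 and 1370 CPM in Wt1KOΔEC. The genotypes overlapped (log2 fold change -0.14, standard error 0.22, adjusted p = 0.878 in edgeR). Its relative Col15a1 (chromosome 4), which is associated with the basement membranes of vessels and muscle, was at 77.2, 54.1 and 62.7 CPM in ControlΔEC and 42.4, 46.7 and 51.3 CPM in Wt1KOΔEC. Every Wt1KOΔEC library was below every ControlΔEC library, but the log2 fold change of -0.47 (standard error 0.19) had an adjusted p of 0.341 in edgeR and was not a DEG by DESeq2 either.

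Col4a5 (chromosome X, 140258354 to 140472231), a chain of the more restricted type IV networks that are altered in Alport syndrome, differed from the rest of its class. It was at 3.53, 6.81 and 5.48 CPM in ControlΔEC and at 17.4, 20.2 and 15.2 CPM in Wt1KOΔEC, so that the lowest Wt1KOΔEC library was more than 2-fold above the highest ControlΔEC library. Its fitted log2 fold change of 1.74 (standard error 0.34; adjusted p = 0.114 in edgeR and 9.3e-04 in DESeq2) stayed between 1.52 and 1.97 with single libraries left out. Per kb, Col4a5 was at 0.565 CPM in ControlΔEC and 1.88 CPM in Wt1KOΔEC, a small amount beside Col4a1 in both. Col4a6, its head-to-head neighbour 1281 bases away, was at 0.0894, 0 and 1.80 CPM in ControlΔEC and 0, 2.84 and 1.27 CPM in Wt1KOΔEC. Col4a3 and Col4a4, the other chains of the restricted networks, had no count in ControlΔEC and were too low to test, with 23 counts of Col4a3 in Wt1KOΔEC replicate 2 and 19 and 6 counts of Col4a4 in replicates 1 and 2. Of the 6 basement membrane chains tested, 3 had a log2 fold change above 0 and 3 below, with a median of -0.05. Its direction was not determined, since it was 0.58 with no filter on low counts and 0.15 without ControlΔEC replicate 1.

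**Figure D2:**
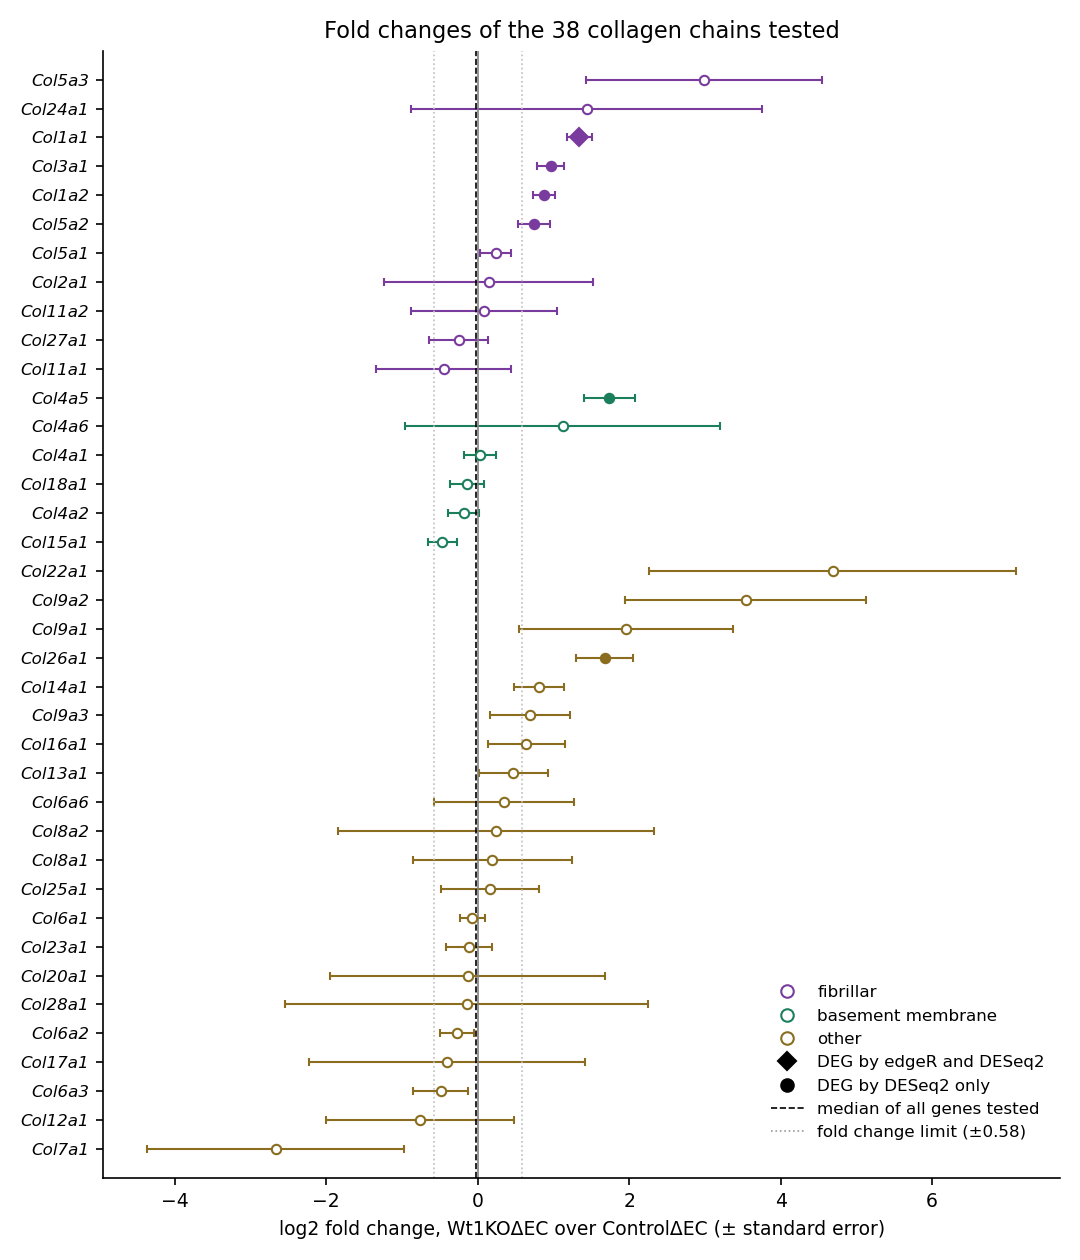
Log2 fold change (Wt1KOΔEC over ControlΔEC) with its standard error for the 38 collagen chains tested, by class and then by size. The diamond is the DEG by edgeR and DESeq2 and filled circles are the 5 further DEGs by DESeq2; long bars belong to chains with few counts, such as Col22a1, which had 1 count in ControlΔEC.

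Of the 25 other collagens, 21 were tested, 12 with a log2 fold change above 0 and 9 below, and their median was 0.19. It was 0.40 with limma-voom, and with single libraries left out it ran from -0.064 (without ControlΔEC replicate 1) to 0.58 (without ControlΔEC replicate 2). Type VI collagen, which forms beaded filaments close to basement membranes, overlapped between genotypes in each of its 3 abundant chains. Col6a1 was at 57.5, 61.6 and 65.0 CPM in ControlΔEC and 66.6, 54.0 and 54.6 CPM in Wt1KOΔEC. Col6a2 was at 74.6, 41.2 and 65.0 CPM in ControlΔEC and 49.7, 49.7 and 50.5 CPM in Wt1KOΔEC. Col6a3 was at 22.7, 9.69 and 22.9 CPM in ControlΔEC and 11.4, 15.4 and 12.5 CPM in Wt1KOΔEC. In Col6a2 and Col6a3, ControlΔEC replicate 2 was the lowest library of all. Log2 fold changes were -0.07, -0.27 and -0.49 for the 3 chains, with standard errors of 0.17, 0.23 and 0.36 and adjusted p-values of 0.924, 0.704 and 0.641 in edgeR. Col6a6 was at 0.603 to 2.91 CPM, and no read was counted for Col6a4 or Col6a5.

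The FACIT collagens, which decorate the surface of fibrils, had a median log2 fold change of 0.75 over the 8 chains tested. Col14a1, the most abundant of them, was at 16.2, 30.6 and 14.1 CPM in ControlΔEC and at 37.1, 43.5 and 26.4 CPM in Wt1KOΔEC. The genotypes overlapped because ControlΔEC replicate 2 lay above Wt1KOΔEC replicate 3. Its log2 fold change of 0.81 (standard error 0.33) had an unadjusted p of 0.0362 and an adjusted p of 0.345 in edgeR. The remaining FACIT chains were low. Col9a2 was at 0, 0.0811 and 0.520 CPM in ControlΔEC and 0.870, 4.35 and 1.70 CPM in Wt1KOΔEC, and Col9a3 at 6.57, 6.08 and 1.70 CPM in ControlΔEC and 8.34, 7.50 and 7.36 CPM in Wt1KOΔEC. Both were without overlap, and edgeR gave them adjusted p-values of 0.388 and 0.671. Col22a1 had 0, 0 and 1 counts in ControlΔEC and 0, 18 and 13 counts in Wt1KOΔEC, so no fold is given.

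Col26a1 (chromosome 5, 136770613 to 136912063), which encodes a short collagen of the testis and ovary, had a low level that differed between genotypes. It was at 5.52, 3.04 and 3.92 CPM in ControlΔEC and 16.2, 12.9 and 10.9 CPM in Wt1KOΔEC. The lowest Wt1KOΔEC library was above the highest ControlΔEC library, with a log2 fold change of 1.68 (standard error 0.37; adjusted p = 0.155 in edgeR and 0.00560 in DESeq2). Col7a1, the anchoring fibril chain of skin, was at 0.380, 1.24 and 0.555 CPM in ControlΔEC and 0, 0.140 and 0.198 CPM in Wt1KOΔEC, the only chain besides Col15a1 whose Wt1KOΔEC libraries were all lower. Its adjusted p was 0.579 in edgeR.

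Transmembrane collagens straddled 0, with a median log2 fold change of 0.02 over 4 chains. Col13a1 was at 6.28, 16.2 and 5.41 CPM in ControlΔEC and 10.2, 11.9 and 16.7 CPM in Wt1KOΔEC (log2 fold change 0.47, standard error 0.45, adjusted p = 0.755 in edgeR), and its log2 fold change was 1.15 without ControlΔEC replicate 2. Col23a1 lay between 7.64 and 11.3 CPM over the 6 libraries. Col8a1 and Col8a2, the short-chain collagens of the vascular and corneal endothelium, were at most at 4.59 CPM, and Col10a1 of hypertrophic cartilage and Col19a1 had no count. In all, 4 of the 44 chains had no count in any library, which at these depths allows up to the floor of 0.119 CPM, and 23 of the 38 tested had a mean under 10 CPM.

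Summed over their members, fibrillar chains were at 846, 727 and 743 CPM in ControlΔEC and at 1479, 1493 and 1411 CPM in Wt1KOΔEC. The groups were narrow and far apart, with means of 772 ± 64.8 and 1461 ± 43.7 CPM (SD, n = 3). Basement membrane chains summed to 8155, 6153 and 5573 CPM in ControlΔEC and to 6407, 7301 and 5098 CPM in Wt1KOΔEC, which overlapped. The other collagens summed to 222, 209 and 210.4 CPM in ControlΔEC and to 242, 233 and 224 CPM in Wt1KOΔEC, a small difference without overlap. All 44 chains together made up 0.691% to 0.922% of the counts in ControlΔEC and 0.653% to 0.868% in Wt1KOΔEC, which overlapped. In CPM they summed to 9223, 7089 and 6526 in ControlΔEC and 8128, 9027 and 6733 in Wt1KOΔEC, which also overlapped. The mean was lower in Wt1KOΔEC by the first measure and higher by the second. The total collagen message thus did not separate the genotypes while its composition did.

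Of the collagen counts of a library, fibrillar chains made up 9.17%, 10.2% and 11.4% in ControlΔEC and 18.2%, 16.5% and 21.0% in Wt1KOΔEC. The log2 ratio of fibrillar to basement membrane counts, which does not depend on the scaling between libraries, was -3.27, -3.08 and -2.91 in ControlΔEC and -2.12, -2.29 and -1.85 in Wt1KOΔEC. The means differed by 1.00, with SDs of 0.18 and 0.22 (n = 3), and no library of one genotype reached the other. The difference was 0.91 without Col1a1, 0.96 against type IV chains only and 1.04 with counts per kb.

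**Figure D3:**
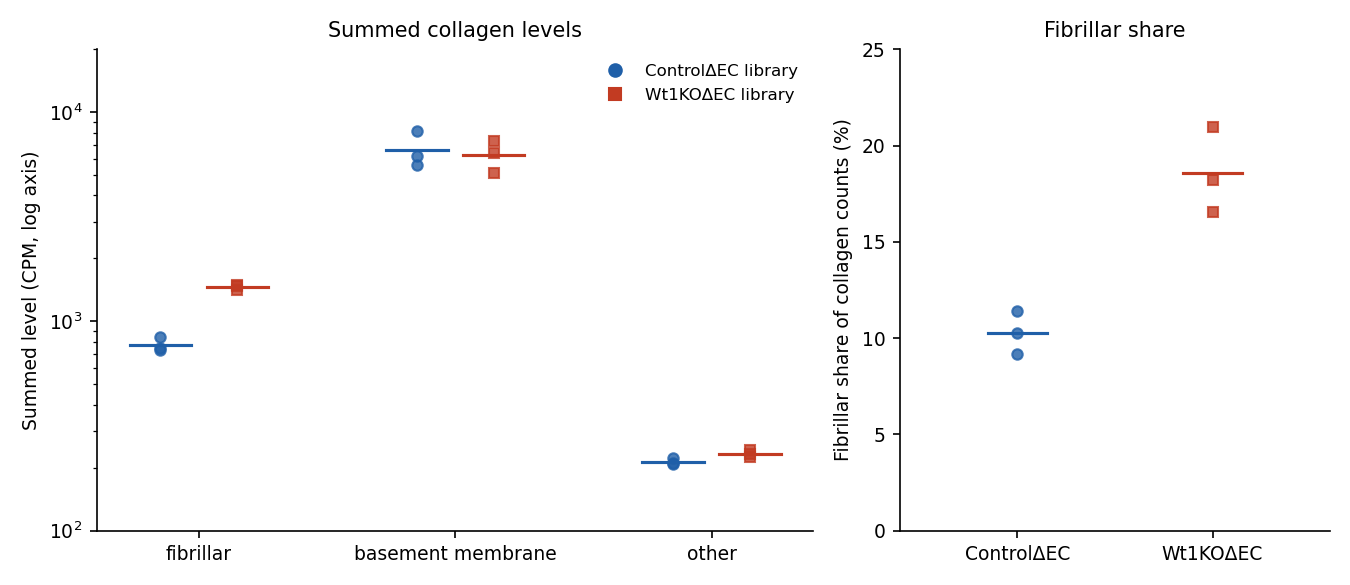
Left, summed level of fibrillar, basement membrane and other collagens in each library (CPM, log axis); right, fibrillar share of all collagen counts in percent. Circles are ControlΔEC libraries, squares Wt1KOΔEC libraries and lines means of 3; the fibrillar share is 9.17% to 11.4% in ControlΔEC and 16.5% to 21.0% in Wt1KOΔEC.

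Because fibrillar collagens are also expressed by fibroblasts and mural cells, markers of these and other cell types were read in the same libraries. The 11 fibroblast markers summed to between 278 and 428 CPM in ControlΔEC and between 364 and 434 CPM in Wt1KOΔEC, which overlapped. Postn made up most of each sum, at 280, 152 and 295 CPM in ControlΔEC and 256, 191 and 204 CPM in Wt1KOΔEC. The median log2 fold change of the 11 was 0.18, with 8 above 0 and 3 below. By DESeq2 2 were higher DEGs and 0 lower, where 1.66% and 2.02% of all genes tested were. Pdgfra, Mfap4 and Dcn were above ControlΔEC in every Wt1KOΔEC library and Dpt and Lsp1 below. Of all genes tested, 10.3% lay above and 8.97% below without overlap. Mfap4, a matrix protein of elastic fibers, was at 6.59, 5.41 and 6.66 CPM in ControlΔEC and 20.4, 17.1 and 13.9 CPM in Wt1KOΔEC. The 10 mural cell markers summed to 469 to 639 CPM in ControlΔEC and 330 to 387 CPM in Wt1KOΔEC, a lower sum without overlap. Of the 9 tested, 7 had a log2 fold change below 0, 4 of them without overlap. Rgs5 and Kcnj8 were among those 4. The paper counts both as arterial genes, so the sum is not particular to mural cells. The smooth muscle genes Tagln and Cnn1 had log2 fold changes of 0.92 and 0.88 with overlap.

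The 10 epicardial markers summed to between 24.5 and 36.3 CPM in ControlΔEC and between 39.4 and 79.3 CPM in Wt1KOΔEC, a higher sum without overlap. Of these, 7 had a log2 fold change above 0, 4 of them without overlap, where 10.3% of all genes tested lay above without overlap. The median log2 fold change of the 10 was 0.93, and 2 were higher DEGs by DESeq2, where 1.66% of all genes tested were. Muc16, Dmkn and Aldh1a2 had log2 fold changes of -2.19, -0.34 and -0.05. The 5 endocardial markers summed to between 192 and 311 CPM in ControlΔEC and between 279 and 366 CPM in Wt1KOΔEC, which overlapped. Nfatc1, the highest, was at 170, 131 and 253 CPM in ControlΔEC and 202, 242 and 213 CPM in Wt1KOΔEC. All 5 had a log2 fold change above 0, with a median of 0.84. Hapln1 and Adgrg6 lay above without overlap and were higher DEGs by DESeq2, where 1.66% of all genes tested were. The 5 markers of valve mesenchyme summed to between 42.7 and 51.9 CPM in ControlΔEC and between 50.7 and 64.9 CPM in Wt1KOΔEC, which overlapped. Of these, 3 had a log2 fold change above 0 and 2 below, with a median of 0.31. Sox9 and Cthrc1 lay above without overlap. None of the fibroblast, mural cell, epicardial, endocardial or valve mesenchyme markers was at 0 in all libraries of a genotype, and the 10 cardiomyocyte markers, of which Nkx2-5 was at 0 in ControlΔEC, summed to between 144 and 202 CPM in ControlΔEC and between 121 and 258 CPM in Wt1KOΔEC. The 8 macrophage markers summed to 426, 826 and 273 CPM in ControlΔEC and to 262, 293 and 198 CPM in Wt1KOΔEC; all 8 had a log2 fold change below 0, with a median of -0.92, and 2 were DEGs by DESeq2. The 6 erythroid markers summed to between 5181 and 11107 CPM in ControlΔEC and between 3534 and 5995 CPM in Wt1KOΔEC. Of the 5 tested 4 had a log2 fold change below 0, with a median of -0.54 and 2 DEGs by DESeq2. The macrophage and erythroid DEGs were lower, where 2.02% of all genes tested were lower DEGs by DESeq2. The part of these cell types in the fibrillar collagen difference was not tested, and in sorted bulk cells more cells of a type and more RNA per cell cannot be told apart. Rn18s moved with the genotype as well, and so did mitochondrially encoded genes, which took 6.41%, 6.61% and 5.21% of the counts in ControlΔEC and 1.68%, 2.78% and 4.57% in Wt1KOΔEC. The part of either was not tested.

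Genes that act on collagen differed in both directions, and edgeR called 0 of them, where 0.0736% of all genes tested were DEGs. Among 22 folding and modifying enzymes, 16 had a log2 fold change above 0 and 6 below, with a median of 0.25. At an unadjusted p under 0.05 with the fold change limit 1 was higher and 1 lower, as by DESeq2. Over all genes tested 4.17% were higher and 5.96% lower by this rule, and 1.66% and 2.02% by DESeq2. Without overlap, 10.3% of all genes tested lay above and 8.97% below. P3h1, which hydroxylates a proline in fibrillar chains, was at 46.3, 52.0 and 49.5 CPM in ControlΔEC and 82.3, 96.7 and 72.9 CPM in Wt1KOΔEC (log2 fold change 0.77, standard error 0.17, adjusted p = 0.144 in edgeR and 0.00434 in DESeq2). P4ha1, a catalytic subunit of prolyl 4-hydroxylase, was at 152, 109 and 160.4 CPM in ControlΔEC and 209.6, 190.3 and 216 CPM in Wt1KOΔEC, and its partner subunit P4hb, the most abundant of the enzymes, at 808, 749.6 and 798 CPM and at 936, 1057 and 892 CPM. The cyclophilin Ppib was at 188, 184 and 161 CPM in ControlΔEC and 248, 253 and 229 CPM in Wt1KOΔEC. The galactosyltransferase Colgalt2 went the other way, at 43.4, 19.2 and 32.2 CPM in ControlΔEC and 15.46, 15.8 and 7.52 CPM in Wt1KOΔEC. None of these 5 overlapped between genotypes, but only P3h1 and Colgalt2 passed DESeq2 with the fold change limit.

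Among the 14 processing and crosslinking enzymes tested, 10 had a log2 fold change above 0 and 4 below (median 0.36). At an unadjusted p under 0.05 with the fold change limit 2 were higher and 2 lower, and the same numbers by DESeq2. Over all genes tested 4.17% were higher and 5.96% lower by this rule, and 1.66% and 2.02% by DESeq2. Of the lysyl oxidases, which crosslink collagen and elastin, Loxl1 was at 1.77, 2.19 and 3.99 CPM in ControlΔEC and 11.2, 14.0 and 6.17 CPM in Wt1KOΔEC (log2 fold change 1.99, standard error 0.50, adjusted p = 0.198 in edgeR). Loxl2 was at 20.0, 17.0 and 28.6 CPM in ControlΔEC and 67.7, 60.6 and 29.1 CPM in Wt1KOΔEC (log2 fold change 1.26, standard error 0.34), where Wt1KOΔEC replicate 3 was barely above ControlΔEC replicate 3. Loxl3 was at 4.11, 2.55 and 4.47 CPM in ControlΔEC and 5.20, 9.30 and 6.41 CPM in Wt1KOΔEC. Pxdn, the peroxidase that crosslinks type IV collagen through sulfilimine bonds and the most abundant gene of the list, was lower, at 1416, 903 and 1173 CPM in ControlΔEC and 708, 782 and 645 CPM in Wt1KOΔEC (log2 fold change -0.71, standard error 0.18, adjusted p = 0.209 in edgeR and 0.00530 in DESeq2). Tll2, a tolloid-like metalloprotease, had 32, 61 and 15 counts in ControlΔEC and 0 in each Wt1KOΔEC library, at least 8.84-fold lower against the mean floor of 3 counts per library. With this gene at its bound the median was again 0.36.

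Of 13 fibril-associated proteins tested, 8 had a log2 fold change above 0 and 5 below, with a median of 0.14. At an unadjusted p under 0.05 with the fold change limit 1 was higher and 1 lower, and by DESeq2 1 was higher and 0 were lower. Over all genes tested 4.17% were higher and 5.96% lower by the first rule, and 1.66% and 2.02% by DESeq2. Decorin (Dcn), a proteoglycan that binds fibrils and is also on the fibroblast list, was at 40.7, 19.0 and 41.0 CPM in ControlΔEC and 70.8, 54.7 and 71.7 CPM in Wt1KOΔEC (log2 fold change 0.97, standard error 0.29, adjusted p = 0.242 in edgeR and 0.0451 in DESeq2). Fibromodulin (Fmod) was at 7.40, 0 and 2.64 CPM in ControlΔEC and 15.3, 7.72 and 9.14 CPM in Wt1KOΔEC. The collagen-binding protein Sparc, the highest of the list, overlapped at 2751 to 4065 CPM in ControlΔEC and 2364 to 3157 CPM in Wt1KOΔEC. Without overlap, 2 of the 13 fibril-associated proteins lay above and 0 below, where 10.3% and 8.97% of all genes tested did. The 9 collagen receptors tested had a median of -0.09 and the 7 proteases a median of 0.18, with no gene of either without overlap. At an unadjusted p under 0.05 with the fold change limit 0 receptors, 1 higher protease and 1 lower protease were found, and by DESeq2 0 genes of either list. Their most abundant genes, Itgb1 and Mmp2, had log2 fold changes of -0.09 and 0.18.

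**Figure D4:**
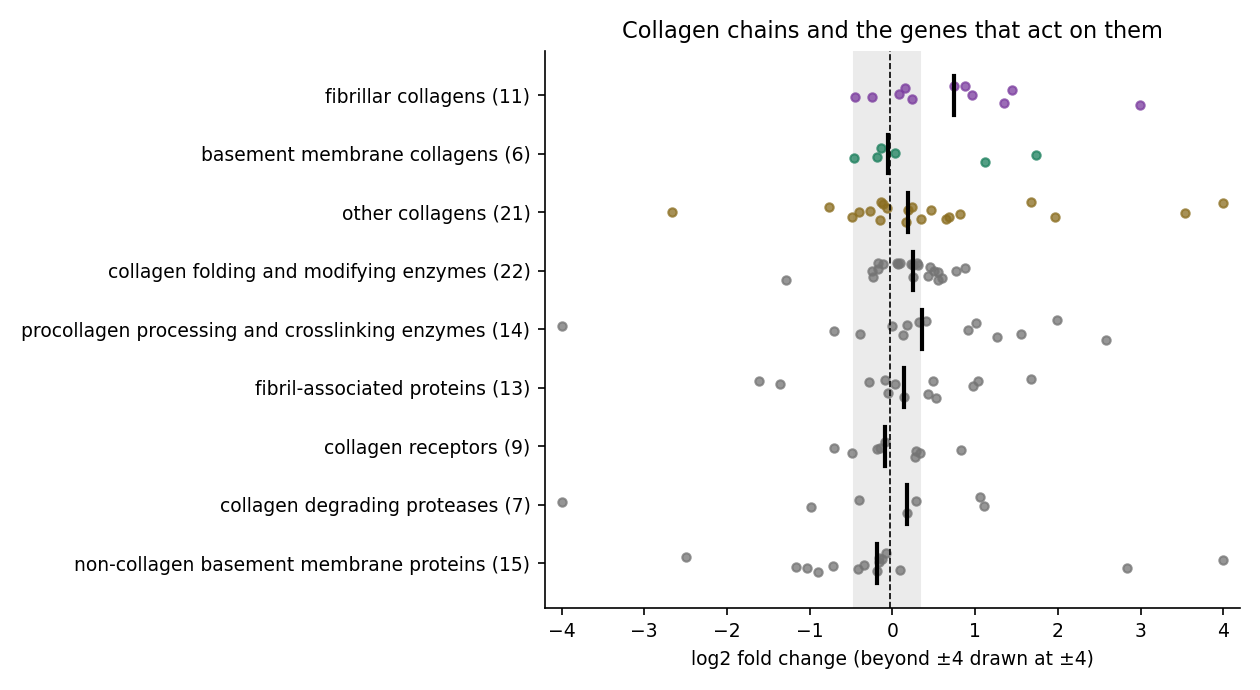
Log2 fold change (Wt1KOΔEC over ControlΔEC) of each gene tested in the collagen classes and in lists of genes that act on collagen or share the basement membrane, with the number tested in brackets. Thick bars are medians, the dashed line is the median of all genes tested and the grey band their middle 50%; medians run from -0.18 for non-collagen basement membrane proteins to 0.74 for fibrillar collagens.

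The non-collagen proteins of the basement membrane lay mainly below 0, in 12 of 15 genes, with a median of -0.18. At an unadjusted p under 0.05 with the fold change limit 1 was higher and 3 were lower, as by DESeq2, and 5 were below and 2 above without overlap. Over all genes tested 4.17% were higher and 5.96% lower by the first rule, and 1.66% and 2.02% by DESeq2. Without overlap, 8.97% of all genes tested lay below and 10.3% above. Hspg2 encodes perlecan and was the most abundant of them in CPM. It was at 1538, 988 and 904 CPM in ControlΔEC and 737, 796 and 552 CPM in Wt1KOΔEC (log2 fold change -0.72, standard error 0.23, adjusted p = 0.257 in edgeR). Lamc1, the common gamma chain of laminins, was at 486, 313 and 225 CPM in ControlΔEC and 176, 215 and 158 CPM in Wt1KOΔEC (log2 fold change -0.90, standard error 0.27). In both, ControlΔEC replicate 1 was the highest library, as it was for Col4a1 and Col4a2. Lamb2 was at 167, 199 and 169.9 CPM in ControlΔEC and 124, 151 and 125 CPM in Wt1KOΔEC. Nid2, the most abundant of the list per kb of exonic length, overlapped between genotypes. It was at 876, 688 and 691 CPM in ControlΔEC and 705, 691 and 590 CPM in Wt1KOΔEC (log2 fold change -0.18, adjusted p = 0.713 in edgeR). The alpha chains went apart, since Lama2 was at 9.72, 6.95 and 5.24 CPM in ControlΔEC and 1.97, 1.15 and 0.752 CPM in Wt1KOΔEC (log2 fold change -2.49, standard error 0.59, adjusted p = 0.170 in edgeR), while Lama1 had 0, 1 and 0 counts in ControlΔEC and 22, 38 and 31 counts in Wt1KOΔEC.

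The chains that differed did not all lie on the same chromosome, although some are neighbours. Col3a1 and Col5a2, both higher in every Wt1KOΔEC library, lie tail to tail on chromosome 1 with 16713 bases between them. Col6a2 and Col6a1 lie on the same strand of chromosome 10 and Col4a4 and Col4a3 head to head on chromosome 1. The tested chains had a median exonic length of 7.54 kb and a GC content of 55.1%, against 5.60 kb and 48.7% over the 16238 genes tested with an annotation. By these medians collagen messages were longer and richer in GC than the genes tested. Among the DEGs by DESeq2, Col5a2, Col3a1, Col1a2 and Col4a5 had a GC content of 43.4%, 44.1%, 44.9% and 46.0%. Col26a1 and Col1a1 were at 55.3% and 57.7%. With offsets for length and GC content the log2 fold change of Col1a1 was 1.23 (adjusted p = 0.0873 in edgeR), which ended its call.

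**Figure D5:**
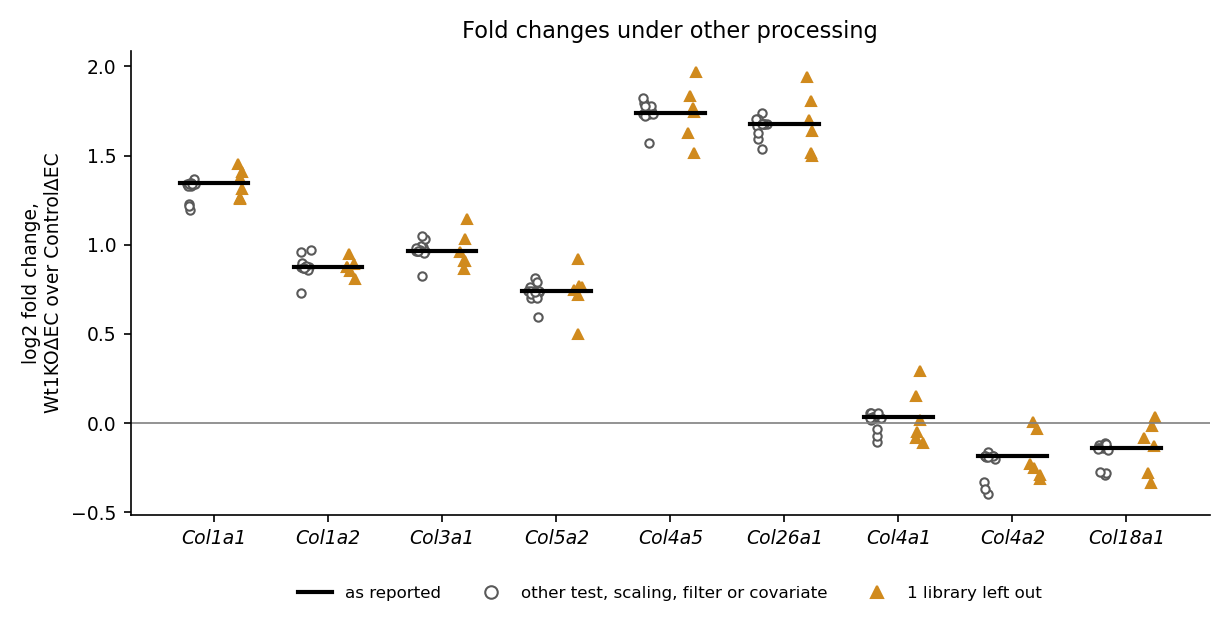
Log2 fold change (Wt1KOΔEC over ControlΔEC) of 9 collagen chains as reported (bars), with another test, scaling, filter or covariate (circles) and with 1 library left out (triangles). Col1a1 stays between 1.19 and 1.45 and Col4a5 between 1.52 and 1.97, while Col4a1 lies on both sides of 0.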

How the data were processed

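RNA-Seq libraries of mGFP+ ECs were made by the authors with SMART-seq2 and Nextera XT, without strand information. Per the paper's methods, the authors aligned reads to GRCm39 with STAR 2.7.8a and quantified GENCODE vM27 genes with RSEM 1.3.0, whereas the submitters' processing notes name GRCm38 as the build; the deposited values are expected counts per gene, in whole numbers and not normalized. The table holds no coordinates, and positions, lengths and overlaps were taken from GENCODE vM39 on GRCm39. The test, run on genes that reached 10 counts in 2 or more libraries, was made in R 4.3.3 with edgeR 4.0.16 (TMM, quasi-likelihood F test, Benjamini-Hochberg adjustment). Standard errors are log2 fold changes divided by the root of F, without sign. Alternatives were DESeq2 1.42.0, limma-voom (limma 3.58.1), edgeR's likelihood ratio test, other scalings and filters, a block for the replicate number, length and GC offsets from splines with 5 degrees of freedom, and each library left out; DESeq2 on all genes and counts per kb for the fibrillar ratio were chosen after seeing the data.

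Collagens named with values in every library are the chains averaging 10 CPM or more, or with a DEG call by edgeR or DESeq2; Col5a3, Col4a3, Col4a4, Col4a6, Col7a1, Col9a2, Col9a3 and Col22a1 were added after their values were seen. In the lists of genes that act on collagen or share the basement membrane, the most abundant gene in CPM is named. Nid2 is named as the most abundant of its list per kb. Up to 5 genes with the smallest unadjusted p among those without overlap are named there too. Cell type markers are given mainly as sums, and not every marker without overlap is named. The members and gene lists were chosen with earlier results of these data known. Within each genotype the library identifiers are consecutive, and their letters differ between ControlΔEC (AT) and Wt1KOΔEC (AU). No batch is named, so a batch and the genotype cannot be told apart. The steps were tested on simulated data; collagen protein sequences were not analysed here.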

Additional observations from a re-analysis of the deposited data

How the results depend on the processing

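The number of collagen DEGs depended on the test: against 1 with edgeR's quasi-likelihood test it was 6 with DESeq2, 6 with DESeq2 on all genes, 5 with the likelihood ratio test, 4 with no filter, 3 with at least 10 counts in every library, and 0 with library size only, with the length and GC offset, and with that offset together with the replicate block; leaving out single libraries gave 0 to 1. Over all genes the 12 DEGs became 599, 767, 432, 296 and 113 in the first 5 of these settings, 6 with the offset and 6 with offset and block, and 2 to 37 with single libraries left out. The block gave 0 collagen DEGs and 5 DEGs over all genes; the same-numbered libraries of the genotypes deviated together with r = 0.057, 0.0045 and 0.020, under the 0.1 required of each pair, so the numbers were not taken as pairs; ControlΔEC replicate 2 correlated best with Wt1KOΔEC replicate 3 (r = 0.013).

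The median of the fibrillar chains kept its direction in every alternative run. The median of the other collagens was 0.40 with limma-voom, 0.46 with the replicate block, 0.50 with offset and block and -0.064 to 0.58 with single libraries left out, and that of the basement membrane chains was 0.58 with no filter, 0.58 with DESeq2 on all genes, 0.58 over type IV chains only and up to 0.15 with single libraries left out; both directions were therefore not determined. Col1a1 kept its direction but was no longer past the threshold with library size only (adjusted p = 0.0527), the replicate block (0.0910), the offset and the offset with block (0.147). Log2 fold changes that turned were those of Col4a1, to -0.11 with library size only, -0.071 with the offset and -0.035 with offset and block. With single libraries left out they ran from -0.11 (without ControlΔEC replicate 2) to 0.29 for Col4a1, from -0.31 to 0.0067 (without ControlΔEC replicate 1) for Col4a2 and from -0.34 to 0.036 (without ControlΔEC replicate 2) for Col18a1. Library size only moved the median of all genes from -0.03 to -0.18. The causes were not tested. Chains with a mean of a few CPM or less had standard errors up to 2.42 on the log2 scale, so depth limits what can be said of them.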
